A study of Mus musculus with 2 samples.

Results

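Innate memory-like CD8 T cells are CD8 lineage cells that take on the surface and transcription factor profile of memory cells in the thymus, before they meet a foreign antigen. The genes examined here, which mark this state or a cell type linked to it, were *Eomes*, *Tbx21*, *Zbtb16*, *Zfp683*, *Prdm1*, *Cd44*, *Ly6c2* and *Il4*. They were chosen by symbol, and all 8 were found among the 48321 genes listed in both count tables. In the thymus, IL-4 made by invariant natural killer T (iNKT) cells acts through its receptor and STAT6 on neighbouring CD8 thymocytes, which then express Eomes and high CD44. Eomes and T-bet (*Tbx21*) are T-box factors of memory and effector lymphocytes. PLZF (*Zbtb16*) is the factor that sets the innate programme of iNKT cells, while Hobit (*Zfp683*) and Blimp-1 (*Prdm1*) are zinc finger repressors shared by tissue-resident and innate-like T cells.

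The data were RNA-seq counts of 2 libraries, replicate 1 and replicate 2, of 1 group of C57Bl/6 mice, MHC-II0:CD8ab Tg, with no treatment. By the study's account, these mice lack I-A beta and therefore MHC class II, carry the *Cd8* Δab allele that disrupts both endogenous CD8 chains, and express cDNAs for both chains from the *Rosa26* locus once Cre, driven by the *Cd4* promoter, has removed a stop cassette. Expression from *Rosa26* was described as weaker than that of the endogenous chains, and age was not given in the sources used here. The labels differ on the sort, since the titles describe cells without either co-receptor, whereas the cell type field describes mature CD8+ thymocytes and the study's account CD4- mature thymocytes. Wild-type libraries were not analysed here, so the values below are levels in the transgenic cells and differences between their libraries, not effects of the transgene.

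Replicate 1 held 16732644 counts on genes and replicate 2 held 16245849, so that a floor of 3 counts stood at 0.179 and 0.185 CPM, the count of a gene per 1000000 counts on genes. Counts on genes were 40.6% and 41.2% of the uniquely placed reads. All 12 genes of the mature CD8 T-cell list were at or above 1 CPM in both libraries. Most of them, such as the CD3 and T-cell receptor chains, are shared with other T cells. *Cd8a* and *Cd8b1* reads can come from the inserted cDNAs. *Cd4* had 12 and 27 counts, and 5 of 6 erythroid markers were at 0. The summed markers in replicate 1 and replicate 2 were 13.6 and 15.5 CPM for B cells, 15.4 and 16.5 CPM for myeloid cells, with *Ccr3* at 0, and 3.88 and 4.37 CPM for thymic epithelium. They were 83.0 and 84.3 CPM for the CD4 lineage, 19.4 and 18.9 CPM for double-positive thymocytes, 54.8 and 51.8 CPM for gamma delta T cells, and 0.478 and 0.616 CPM for erythroid cells. Several sums came mostly from a single gene. These were *Cd79b* for B cells (11.7 and 14.0 CPM), *Csf1r* for myeloid cells (9.74 and 11.8) and *Epcam* for epithelium (2.99 and 3.26). *Gata3* gave 47.9 and 45.9 CPM of the CD4 lineage sum, and *Dntt* 13.4 and 13.0 CPM of the double-positive sum. The libraries differed in sex-linked transcripts: *Ddx3y*, on the Y chromosome, took 2450 counts in replicate 1 against 0 in replicate 2, and *Xist*, made from an inactive X chromosome, had 34 and 25266. Sex and replicate therefore cannot be told apart in any difference between these libraries. No label states whether the libraries came from single or pooled mice. In bulk RNA, fewer cells of a type and less RNA per cell cannot be told apart.

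*Ly6c2* and *Eomes* were the most abundant of the 8 genes when compared per length, as CPM per kb of annotated exon. *Ly6c2*, which encodes the GPI-anchored surface protein Ly6C of memory CD8 T cells, stood at 76.1 ± 15.0 CPM per kb (SD, n = 2), and *Eomes* at 66.2 ± 27.0 CPM per kb. *Cd44*, the hyaluronan receptor used to mark memory-phenotype T cells, followed at 15.4 ± 2.44 CPM per kb. *Zfp683* stood at 13.8 ± 3.26 CPM per kb and *Tbx21* at 11.6 ± 0.777 CPM per kb. *Zbtb16* was lower, at 3.77 ± 0.452 CPM per kb. *Prdm1* and *Il4* were the lowest, at 0.594 ± 0.128 and 0.443 ± 0.131 CPM per kb.

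Some neighbours in this order were not separated by the spread between the libraries. *Ly6c2* was above *Eomes* in replicate 1 (86.7 against 47.1 CPM per kb) and below it in replicate 2 (65.6 against 85.3 CPM per kb). The ranges of *Cd44* (13.7 to 17.2 CPM per kb), *Zfp683* (11.5 to 16.2) and *Tbx21* (11.1 to 12.2) overlapped from one neighbour to the next, and so did those of *Prdm1* (0.503 to 0.684) and *Il4* (0.351 to 0.536). Clear steps with no overlap lay between *Eomes* and *Cd44*, between *Tbx21* and *Zbtb16*, and between *Zbtb16* and *Prdm1*. Among 21163 protein-coding genes, *Ly6c2* ranked 395 and *Eomes* 474 by mean level per length, *Cd44* 2767, *Zfp683* 3066, *Tbx21* 3604, *Zbtb16* 6985, *Prdm1* 9862 and *Il4* 10147. For scale, 48.9% of protein-coding genes reached 1 CPM in both libraries, and their median level was 7.30 CPM per kb. Of the members, 7 reached 1 CPM in both libraries, all but *Il4*.

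Which differences between the libraries exceeded counting error was asked with a two-sided exact binomial test of each gene's counts, adjusted by Benjamini-Hochberg over all 15949 genes with at least 10 counts. The test compares 2 libraries of 1 group and no conditions, and paired values below are given for replicate 1 first. *Eomes*, *Zfp683* and *Cd44* were higher in replicate 2, *Ly6c2* was lower in replicate 2, and *Tbx21*, *Zbtb16*, *Prdm1* and *Il4* did not pass. So 4 of 8 members differed, where 16.3% of all genes tested did; of genes with at least 100 counts, 4 of 7 members and 21.8% of all genes differed. No member differed by 2-fold or more. When an edgeR exact test allowed for a biological coefficient of variation of 0.1, an assumed value and not one estimated from these libraries, 1 member remained, *Eomes*, beside 0.464% of all genes. The median log2 ratio, replicate 2 to replicate 1, was 0.28 over the members and 0.08 over all genes tested. Scaling mattered for the balance over all genes: by total counts 2146 of the 2596 genes that differed were higher in replicate 2, against 824 of 1683 with TMM and 833 of 1684 with DESeq2 library sizes, which centre the median ratio near 0. Each member kept its direction and its side of the threshold under both of these scalings. The shares of 16.3% and 21.8% of all genes are also the scale for the counts of listed genes below.

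**Figure D1:**
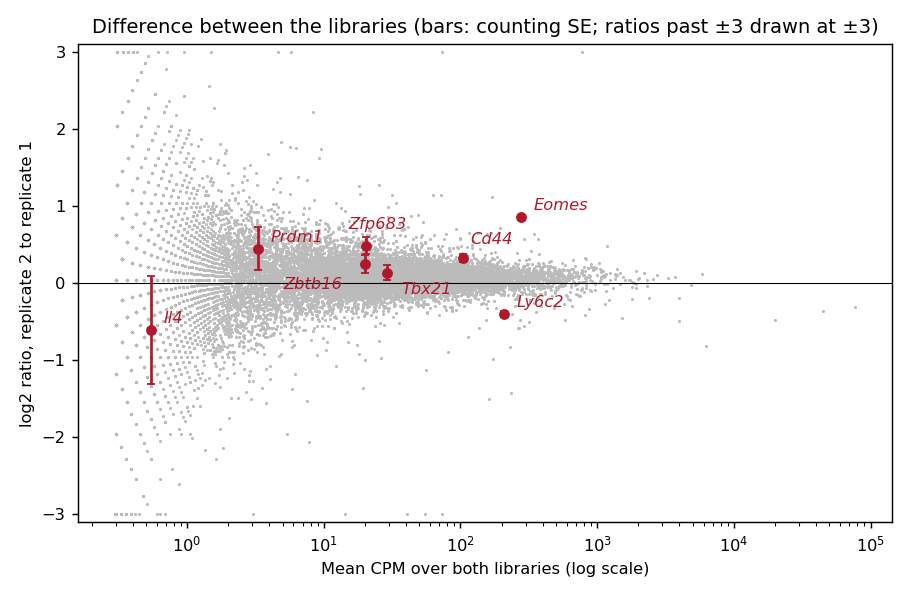
log2 ratio of replicate 2 to replicate 1 against mean CPM on a log axis; grey points are all 15949 genes tested, red points the 8 members, and bars the counting SE. *Eomes* stands at 0.86, above most genes of like level, *Ly6c2* stands at -0.40, and the wide bar of *Il4* covers 0.

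*Eomes* (chr9:118478212-118486132, plus strand, GRCm38) took 3275 and 5760 counts in the libraries, which is 196 CPM (95% Wilson interval 189 to 203) and 355 CPM (346 to 364). The level in replicate 2 was 1.81-fold that in replicate 1, with no overlap of the intervals (log2 ratio 0.86 ± 0.03, counting SE). The adjusted p was 6.78e-166 by the exact binomial test and 0.0119 by the edgeR exact test with the assumed variation. Of 5719 genes with at least 1000 counts, 17 differed more than *Eomes*, 5 of them the sex-linked genes *Ddx3y*, *Eif2s3y*, *Kdm5d*, *Xist* and *Tsix*, and the median absolute log2 ratio of these 5719 genes was 0.10. By mean level per length *Eomes* ranked 706 in replicate 1 and 349 in replicate 2. An antisense gene, *Gm33460*, overlaps 118 bases or 2.84% of its exons and was not listed in the count tables.

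Natural killer (NK) cells also express *Eomes*, and most of the other NK markers listed here were higher in the same library. Leaving *Eomes* out of the list, 7 of 8 markers were higher in replicate 2 and none was lower, where 16.3% of all genes tested differed. The exception was *Fcer1g*, with 161 and 137 counts, and with TMM library sizes 5 were higher. *Ncr1*, the NK receptor NKp46, took 45 and then 112 counts, and *Tyrobp*, an adaptor of activating receptors, had 29 and 76; both also passed the edgeR exact test with the assumed variation. The summed level of these 8 markers was 76.3 CPM in replicate 1 against 108 CPM in replicate 2, and none was at 0. Much of this sum was *Klra1*, at 27.3 and 39.8 CPM, and *Klrb1c*, at 22.1 and 27.5 CPM. *Klrb1c* is in the iNKT list as well. Genes of cytotoxic cells outside the NK list split by total counts. *Gzma*, *Prf1* and *Nkg7* were higher in replicate 2, *Gzmb* and *Klrd1* were lower, and *Gzmk* and *Gzmm* did not pass. The study defines mature thymocytes by low CD24 and high TCRβ, and the labels of these libraries differ on the co-receptors of the sorted cells. The purity of the sort was not given in the sources used here. The part of NK-type transcripts in the *Eomes* difference was not tested.

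*Tbx21* (chr11:97098071-97115331, minus strand) had 462 and 493 counts, or 27.6 CPM (25.2 to 30.2) in replicate 1 and 30.3 CPM (27.8 to 33.1) in replicate 2. The intervals overlapped, and the log2 ratio of 0.14 ± 0.09 did not pass (adjusted p = 0.362, exact binomial test). The ratio of *Tbx21* to *Eomes* per length was thus 0.236 in replicate 1 and 0.143 in replicate 2, with *Eomes* on average 5.62 ± 1.95 times as abundant as *Tbx21* (SD, n = 2). Of the 17 T-box genes listed, 4 reached 1 CPM in both libraries. Besides *Eomes* and *Tbx21* these were *Mga*, a MAX partner with a T-box domain, at 11.4 ± 0.327 CPM per kb and *Tbx6*, a mesoderm factor, at 3.68 ± 0.0531 CPM per kb, so *Mga* lay at the level of *Tbx21*. *T*, *Tbx3*, *Tbx10* and *Tbx15* were at 0 in both libraries. Of the 4 T-box genes tested, only *Eomes* differed between the libraries, and the median log2 ratio was 0.10.

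*Zbtb16* (chr9:48654297-48836222, minus strand) had 305 and 351 counts, or 18.2 CPM (16.3 to 20.4) and 21.6 CPM (19.5 to 24.0). The intervals overlapped, and the log2 ratio was 0.25 ± 0.11 (adjusted p = 0.134, exact binomial test). *Zbtb7b* encodes ThPOK, the BTB zinc finger factor of the CD4 helper lineage, and the ratio of *Zbtb16* to *Zbtb7b* per length was 1.25 in replicate 1 and 1.26 in replicate 2. Among 14 BTB zinc finger factors of lymphocytes, 13 reached 1 CPM in both libraries and none was at 0. *Zbtb7a* was the highest at 25.3 ± 0.849 CPM per kb, followed by *Patz1* at 12.3 ± 0.918 and *Zbtb17* at 10.4 ± 1.39 CPM per kb. In that family, *Zbtb17*, *Zbtb38* and *Bcl6* were higher in replicate 2 and *Bach2* was lower, with a median log2 ratio of 0.06. In a comparison with TMM library sizes, added after the data were seen, 2 were higher and 1 lower.

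The iNKT list holds *Zbtb16*, *Il4* and *Tbx21* and 7 other genes. Summed, these genes reached 334 and 351 CPM in the libraries, and 287 and 298 CPM without those 3 members. No gene of it was at 0, and 9 of 10 reached 1 CPM. *Klrb1c*, the NK1.1 antigen, and *Icos*, a co-stimulatory receptor, were higher in replicate 2 and none was lower; with TMM library sizes 1 was higher, *Icos*. Whether the *Zbtb16* reads came from iNKT cells or from CD8 lineage cells cannot be told apart in these bulk libraries.

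*Zfp683* (chr4:134053838-134058996, plus strand) took 284 and 386 counts, or 17.0 CPM (15.1 to 19.1) and 23.8 CPM (21.5 to 26.3). The level in replicate 2 was 1.40-fold higher with no overlap of the intervals (log2 ratio 0.49 ± 0.11, adjusted p = 0.000316, exact binomial test). With the assumed variation the adjusted p of the edgeR exact test was 0.905. *Prdm1* (chr10:44437177-44528501, minus strand) had 47 and 62 counts, or 2.81 CPM (2.11 to 3.73) and 3.82 CPM (2.98 to 4.89). Its intervals overlapped and its log2 ratio was 0.44 ± 0.28 (adjusted p = 0.332, exact binomial test). At this depth a difference of the size seen for *Zfp683* was not detectable for *Prdm1*. Per length *Zfp683* was 22.9 times as abundant as *Prdm1* in replicate 1 and 23.6 times in replicate 2.

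In the list of 16 PRDM genes with Hobit, 8 reached 1 CPM in both libraries and *Prdm6*, *Prdm13* and *Prdm14* were at 0. *Prdm2*, a histone methyltransferase, was the highest at 19.2 ± 1.62 CPM per kb, above *Zfp683*, and *Prdm4* followed at 6.16 ± 0.0984 CPM per kb. Of 9 genes tested, *Zfp683*, *Prdm2* and *Prdm11* were higher in replicate 2 and *Prdm16* was lower, at 46 and 12 counts. The median log2 ratio was 0.23. With TMM library sizes 1 was higher, *Zfp683*, and 1 was lower, *Prdm16*.

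Of 11 genes listed for the residency programme that Hobit and Blimp-1 control, 10 were at or above 1 CPM and none was at 0. The exception was *S1pr5*, with 7 and 13 counts, and 48.9% of all protein-coding genes reached that level. Egress genes were expressed in the same libraries, such as *S1pr1* at 89.5 CPM per kb, and whether a residency programme was active was not tested. The highest were *Itgae*, the CD103 integrin chain, at 106 ± 16.6 CPM per kb, *Cxcr6*, a chemokine receptor, at 56.7 ± 4.96 CPM per kb, and *Runx3*, the CD8 lineage factor, at 45.6 ± 3.17 CPM per kb. *Cxcr6*, *Rgs1*, *Rgs2*, *Xcl1* and *Runx3* were higher in replicate 2 and *Cd69* and *Itgae* were lower. For scale, 16.3% of all genes tested and 21.8% of those with at least 100 counts differed. By total counts, 82.7% of the genes that differed were higher in replicate 2. The median log2 ratio was 0.16. With TMM library sizes 2 were higher and 2 were lower.

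*Cd44* (chr2:102811141-102901665, minus strand) took 1555 and 1889 counts, or 92.9 CPM (88.4 to 97.7) and 116 CPM (111 to 122). The level in replicate 2 was 1.25-fold higher, with no overlap of the intervals (log2 ratio 0.32 ± 0.05, adjusted p = 3.11e-09, exact binomial test). With the assumed variation the adjusted p of the edgeR exact test was 1. Among 11 genes of the CD44 list, which holds its cytoskeletal linkers and other hyaluronan genes, 9 reached 1 CPM, while the hyaluronan receptor *Lyve1* and the synthase *Has2* were at 0. The linkers *Msn* (moesin) and *Ezr* (ezrin) stood at 187 ± 1.07 and 139 ± 3.43 CPM per kb. *Cd44* was the 1 gene of the list higher in replicate 2, whereas *Vim*, *Selplg* and *Spn* were lower, with a median log2 ratio of 0.04. With TMM library sizes 1 was higher, *Cd44*, and 4 were lower, *Msn* among them, with a median of -0.04.

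**Figure D2:**
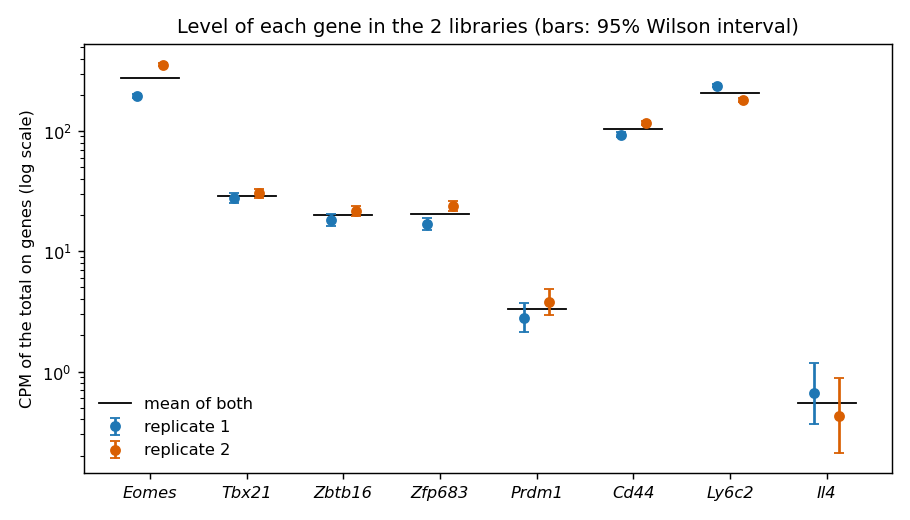
CPM of each of the 8 genes in replicate 1 (blue) and replicate 2 (orange) on a log axis, with 95% Wilson intervals for counting error and a black line at the mean of both. The intervals are apart for *Eomes*, *Zfp683*, *Cd44* and *Ly6c2*, and overlap for *Tbx21*, *Zbtb16*, *Prdm1* and *Il4*.

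*Ly6c2* (chr15:75108158-75111970, minus strand) took 3975 and 2918 counts, or 238 CPM (230 to 245) and 180 CPM (173 to 186). It was 1.32-fold higher in replicate 1, with no overlap of the intervals (log2 ratio -0.40 ± 0.04, adjusted p = 2.00e-28, exact binomial test). With the assumed variation the adjusted p of the edgeR exact test was 0.966. The direction was thus opposite to that of *Cd44*, although both mark the memory phenotype.

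*Ly6c2* has a near-identical neighbour, *Ly6c1* (chr15:75044018-75048830, minus strand), and both products are seen by antibodies as Ly6C, so the sequences are shown to make clear what the reads can separate. The coding sequences have 396 bases each and differ at 9 of them, an identity of 97.7%, and the longest run without a difference is 188 bases, against reads of 50 bases. The first 120 coding bases, read from the GRCm38 genome at chr15:75110578-75111667 for *Ly6c2* and chr15:75047420-75048511 for *Ly6c1*, both spans crossing an intron, carry 6 differing bases each, in capitals.
Ly6c2: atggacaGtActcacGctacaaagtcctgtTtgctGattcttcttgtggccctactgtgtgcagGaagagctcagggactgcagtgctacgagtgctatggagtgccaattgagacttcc
Ly6c1: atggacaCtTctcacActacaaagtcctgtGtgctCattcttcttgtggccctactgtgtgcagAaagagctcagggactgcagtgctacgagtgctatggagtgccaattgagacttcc

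Over all annotated exons, 14.5% of the windows of 50 bases in *Ly6c2* transcripts and 32.8% of those in *Ly6c1* transcripts also occur in another gene, so reads from them cannot be assigned by sequence. *Ly6c1* took only 23 and 13 counts, or 1.09 ± 0.406 CPM (SD, n = 2). Per length, *Ly6c2* was 106 and 137 times as abundant as *Ly6c1*, with a mean of 122 that became 62.6 when the longest transcript set the length. The sequence just upstream of their start sites is less alike than the coding part. Within the 250 bases before each start in RefSeq (GRCm38.p6), the aligned block covers chr15:75111998-75112221 for *Ly6c2* and chr15:75048839-75049056 for *Ly6c1*, both minus strand, and 164 bases match, which is 73.2% and 75.2% of the blocks. They are shown for comparison with the coding part, and capitals mark the bases that are not matched. Any link between these bases and the levels of both genes was not tested.
Ly6c2: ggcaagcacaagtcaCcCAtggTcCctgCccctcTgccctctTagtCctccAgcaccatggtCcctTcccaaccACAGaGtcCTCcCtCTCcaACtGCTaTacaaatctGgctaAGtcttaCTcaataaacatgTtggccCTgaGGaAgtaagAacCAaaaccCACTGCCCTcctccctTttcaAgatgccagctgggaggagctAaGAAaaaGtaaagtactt
Ly6c1: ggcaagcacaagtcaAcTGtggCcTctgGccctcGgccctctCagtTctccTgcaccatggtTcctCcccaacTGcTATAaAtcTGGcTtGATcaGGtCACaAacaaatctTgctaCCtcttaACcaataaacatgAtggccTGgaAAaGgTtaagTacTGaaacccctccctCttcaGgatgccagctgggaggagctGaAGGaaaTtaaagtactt

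Of 16 Ly6 family symbols listed, 14 were matched in the count tables, and 5 reached 1 CPM in both libraries. *Ly6e* was the highest at 211 ± 0.786 CPM per kb, then *Ly6c2*, *Ly6a*, which encodes Sca-1, at 65.8 ± 0.377 CPM per kb, and *Ly6k* at 12.1 ± 2.44 CPM per kb. *Gpihbp1* and *Psca* were at 0. *Ly6e* and *Ly6a* differed little between the libraries, with log2 ratios of 0.01 each, and *Ly6c2* was the 1 gene of 9 tested that differed. The median log2 ratio was -0.13. With TMM library sizes 3 were lower in replicate 2, *Ly6c2*, *Ly6e* and *Ly6k*.

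**Figure D3:**
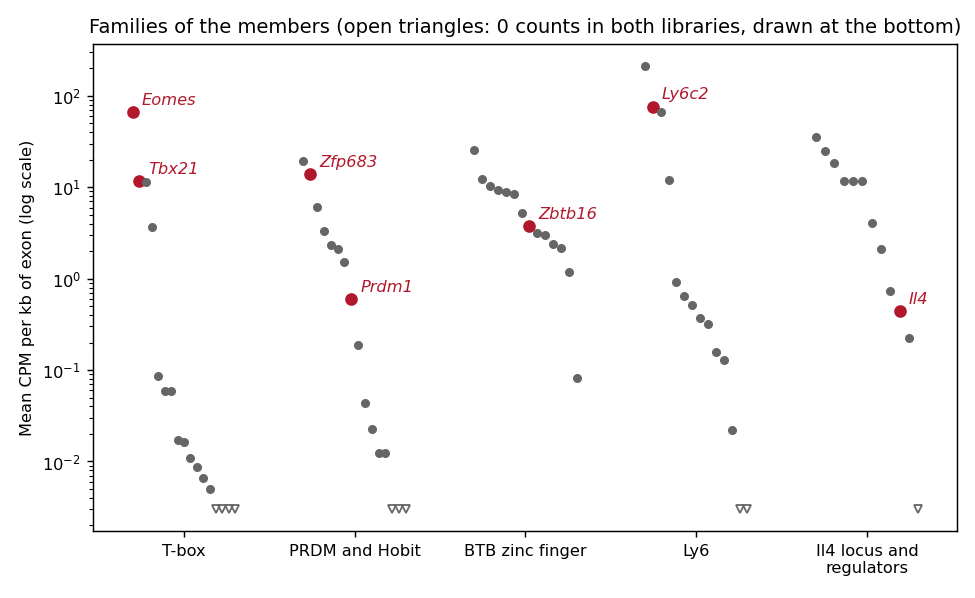
Mean CPM per kb of exon on a log axis for every gene of 5 family lists, in order of level within each list; red points are the members, grey points the other genes and open triangles genes at 0 in both libraries. *Eomes* leads the T-box list, *Zfp683* and *Ly6c2* are second in theirs, and *Prdm1* and *Il4* stand in the lower part of theirs.

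*Il4* (chr11:53602982-53618669, minus strand), the cytokine that drives bystander innate memory CD8 cells, was near the floor. Its 11 counts in replicate 1 and 7 in replicate 2 came to 0.657 CPM (0.367 to 1.18) and 0.431 CPM (0.209 to 0.889), against floors of 0.179 and 0.185 CPM. The intervals overlapped, and the log2 ratio of -0.61 ± 0.70 left no detectable difference at this depth (adjusted p = 0.725, exact binomial test). The study describes iNKT cells among CD4+ mature thymocytes and stained IL-4 protein after stimulation. By its account, the cells sequenced here were CD4-, so these counts do not measure the IL-4 supply of the thymus. The neighbours of *Il4* in the type 2 cytokine locus were also low: *Il13* had 6 and 3 counts and *Il5* was at 0. *Rad50*, the DNA repair gene within that locus, stood at 11.7 ± 0.435 CPM per kb. Of the 12 genes of the locus and its regulators, 9 reached 1 CPM, and the highest were *Junb*, *Nfatc1* and *Batf* at 35.7 ± 0.131, 24.7 ± 1.15 and 18.5 ± 1.27 CPM per kb. *Gata3*, the factor that opens the locus in type 2 cells, stood at 11.8 ± 0.358 CPM per kb. *Maf* was the 1 gene that differed, higher in replicate 2, and with TMM library sizes none did; the median log2 ratio was 0.08.

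The receptor side of IL-4 was well expressed. *Il4ra*, the IL-4 receptor alpha chain, had 4429 and 4973 counts and stood at 47.6 ± 4.88 CPM per kb, and the ratio of *Il4* to *Il4ra* per length was 0.0121 in replicate 1 and 0.00689 in replicate 2. With the longest transcript as the length, the mean ratio was 0.0169 in place of 0.00952, and the level of *Il4* was 0.899 CPM per kb, above that of *Prdm1*. An antisense gene, *Gm44876*, with 130 and 164 counts, overlaps 9.51% of the exons of *Il4ra*. Of 10 genes of the receptor pathway, 9 reached 1 CPM and none was at 0; the exception was *Il13ra1*, with 0 and 2 counts. The phosphatase *Ptpn6* (SHP-1) stood at 176 ± 5.14 CPM per kb, the kinase *Jak1* at 147 ± 9.96, the common gamma chain *Il2rg* at 102 ± 8.03 and the transcription factor *Stat6* at 52.2 ± 1.68 CPM per kb. *Il4ra*, *Jak1* and *Jak3* were higher in replicate 2 and *Il2rg* was lower, with a median log2 ratio of 0.06. With TMM library sizes *Il4ra* and *Jak1* were higher and *Il2rg* was lower.

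The other genes of the innate memory CD8 list, beside *Cd44* and *Ly6c2*, were all expressed: 14 of 14 reached 1 CPM in both libraries. *Nkg7*, a cytotoxic granule protein, was the highest at 414 ± 19.6 CPM per kb, followed by *Il2rb*, the CD122 chain that marks innate memory cells, at 130 ± 11.5 CPM per kb, and the chemokine *Ccl5* at 62.0 ± 17.2 CPM per kb. *Cxcr3*, a chemokine receptor of memory cells, stood at 60.7 ± 10.6 CPM per kb. The cytokine *Ifng* was low, at 3.01 ± 0.831 CPM per kb. Of these 14, 7 were higher in replicate 2, *Il2rb*, *Cxcr3*, *Gzma*, *Ccl5*, *Nkg7*, *Prf1* and *Itga4*, and 3 were lower, *Gzmb*, *Klrd1* and *Il18r1*. For scale, 21.8% of all genes with at least 100 counts differed. By total counts, 82.7% of all genes that differed were higher in replicate 2. The granzymes split, as *Gzma* had 73 and 237 counts and *Gzmb* 461 and 331. *Gzma* was the 1 gene of the list that passed the edgeR exact test with the assumed variation. The median log2 ratio was 0.14, and with TMM library sizes 5 were higher and 3 were lower.

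Genes of naive cells and of thymic egress were expressed in the same libraries, 11 of 11 at or above 1 CPM. *Tcf7*, the TCF-1 factor of naive and memory T cells, was the highest at 317 ± 9.35 CPM per kb, then *Klf2* at 135 ± 4.10 and *Ccr7* at 127 ± 18.8 CPM per kb. The sphingosine phosphate receptor *S1pr1*, needed to leave the thymus, took 5321 and 3694 counts. *Ccr7*, *S1pr1*, *Tcf7* and *Bach2* were lower in replicate 2, *Id3* and *Ccr9* were higher, and the median log2 ratio was -0.06. Of all genes with at least 100 counts, 21.8% differed. With TMM library sizes 8 were lower and 2 were higher, with a median of -0.14.

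**Figure D4:**
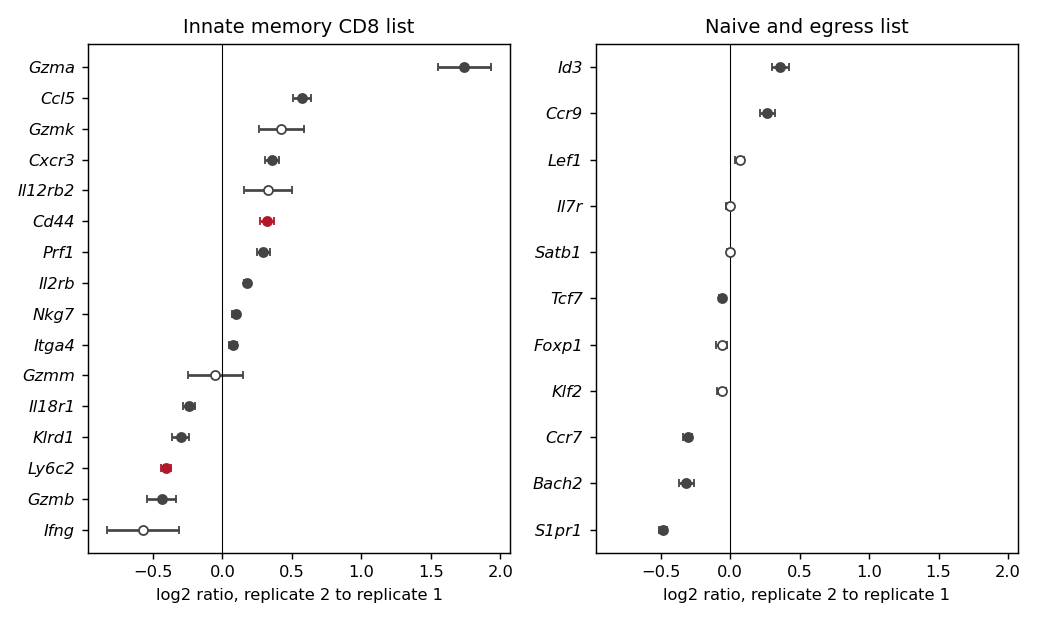
log2 ratio of replicate 2 to replicate 1, with counting SE as bars, for the 16 genes of the innate memory CD8 list (left) and the 11 genes of the naive and egress list (right); filled points passed the exact binomial test, open points did not, and red marks *Cd44* and *Ly6c2*. In the first list 8 genes pass to the right of 0 and 4 to the left, and in the second 2 pass to the right and 4 to the left. Of all genes with at least 100 counts, 21.8% passed.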

How the data were processed

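RNA-seq was done on sorted mature thymocytes, 1 group with 2 libraries. Per the labels and the study's methods, poly(A) libraries were read as single ends of 50 bases, the reads were mapped with TopHat2 (2.1.1) to mm10 and counted with HTSeq (0.6.1), and the authors deposited raw counts per gene. The gene annotation and the strand setting of the counting are not given in the sources used here. Rows that name no gene were left out of library totals; 55.9% of uniquely placed reads in each library fell in no feature. Replicates were taken from the titles. The labels do not say whether each library came from 1 mouse or a pool; the opposite sex-linked transcripts show that the libraries are not repeats of 1 mouse.

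Counts were divided by the total on genes to give CPM and by the union of GENCODE M21 exons (GRCm38) for levels per length; 46394 of 48321 symbols matched the annotation. Between the libraries, a two-sided exact binomial test (scipy 1.17.1) with Benjamini-Hochberg adjustment over genes with at least 10 counts was used, at 0.05. Neither the Wilson intervals nor the 3-count floor cover more than counting error. Alternatives used edgeR 4.0.16 (TMM, and an exact test with a fixed variation of 0.1) and DESeq2 1.42.0 size factors. The exact binomial test was checked on simulated counts that held counting error only, so the check does not cover variation between mice. Named genes are the members, listed genes by the counts of each list with the highest and those at 0, *Ly6c1*, and genes overlapping a member; listed genes that differed were named as well, and *Ddx3y*, *Xist* and the other sex-linked genes were chosen after their values were seen. One marker each of the naive and B-cell lists is not reported here and was left out of their counts. The members and lists were chosen with earlier results of these data known. Promoter windows came from RefSeq; no entry for *Zbtb16* or *Zfp683* was matched.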

Additional observations from a re-analysis of the deposited data

How the results depend on the processing

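Under TMM and DESeq2 library sizes, the CPM of each member stayed within its SD, and each log2 ratio kept its direction and its side of the threshold (18 results with the counts of members that differed). Without mitochondrial and ribosomal RNA genes (393 genes) in the total, the CPM of every member rose. *Tbx21* at 33.8, *Zbtb16* at 23.2 and *Cd44* at 122 CPM moved by more than their SD. The other members stayed within theirs, such as *Eomes* at 319 and *Ly6c2* at 244 CPM. With the edgeR exact test and an assumed biological coefficient of variation of 0.1, the log2 ratios of *Zfp683* (0.49), *Cd44* (0.32) and *Ly6c2* (-0.40) no longer passed, and 1 member differed; their adjusted p were 0.905, 1 and 0.966. With the length of the longest transcript, *Cd44* stood at 18.6 and *Il4* at 0.899 CPM per kb, which put *Il4* above *Prdm1*, and the ratios per length were 0.0454 for *Prdm1* to *Zfp683*, 62.6 for *Ly6c2* to *Ly6c1*, 0.0169 for *Il4* to *Il4ra* and 1.01 for *Zbtb16* to *Zbtb7b*. With exon length less windows shared with other genes, *Ly6c2* to *Ly6c1* was 95.6 and *Zbtb16* to *Zbtb7b* 1.24. A minimum of 1 or 100 counts changed no call on the members it could give; *Il4*, with 18 counts in all, could not be given at 100 counts. No list count at 0.5 or 5 CPM moved by over 1.5 times. Leaving out replicate 1 or replicate 2 gives the value of the other library, which by construction lies within 1 SD of the mean of 2. No paired analysis was possible because there is only 1 group. In the comparison of listed genes with TMM library sizes, added after the data were seen, 8 of 40 counts moved by over 1.5 times, among them mature CD8 T-cell markers, with 3 higher and 4 lower in replicate 2 by total counts and 1 higher and 7 lower by TMM.

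Depth limits *Il4*, *Prdm1* and *Ly6c1*, with 109 counts in all or fewer.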
